A study of Mus musculus with 25 samples.

Results

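The H3K27ac hub bins of fibroblasts are 369 stretches of 10 kb that each took part in 8 or more strong H3K27ac-centred contacts in mouse embryonic fibroblasts. Contacts came from HiChIP, in which DNA that is near in the nucleus is joined and an antibody then enriches the joined fragments. An interaction is a pair of 10 kb bins in the authors' high-confidence list, and the degree of a bin is the number of interactions it takes part in. Hub bins were taken from fibroblast replicate 1 alone, as bins with 8 or more interactions of 19 or more contact counts, with 1 cutoff for all chromosomes. They are 369 of the 30852 bins with any interaction at that cutoff, of 43848 bins in the fibroblast H3K27ac list, and of 144091 bins in any of the study's 9 interaction lists. The degree in fibroblast H3K27ac is thus what chose the members and is given as a description, without a test.

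The fibroblasts (MEFs) were made from rtTA3-OKSM embryos at E13.5 and collected at passage 3. They were heterozygous for an Oct4-GFP reporter, the OKSM reprogramming cassette and rtTA3, so the untreated MEFs carry the same alleles as the reprogramming cells. The day 3 and day 6 cells are such MEFs kept in doxycycline and ascorbic acid, collected in bulk on day 3 and, per the design text, sorted for SSEA1 on day 6. Embryonic stem (ES) cells are the V6.5 line in 2i medium, and the labels give the same line and medium for the cells labelled TKO, without doxycycline (0 h) and with 24 h of it. The design text names the transactivator M2rtTA where the sample labels name rtTA3. What TKO stands for, and whether MEF libraries came from separate embryos, is not given in the labels, so p-values measure only the spread between these libraries, which may be technical. There were 2 MEF, 2 ES and 3 and 3 TKO libraries (0 h and 24 h) for H3K27ac, and 3 day 3, 4 day 6 and 4 ES libraries for KLF4. MEF and ES also had 2 libraries each of Hi-C, which lacks the antibody step.

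H3K27ac is an acetylated form of histone H3 that marks active promoters and enhancers, and bins that contact many such elements are often clusters of enhancers around genes that define a cell type. In fibroblasts these include genes of the collagen-rich matrix, of the actin and vimentin cytoskeleton, and transcription factors of mesenchyme. KLF4 is a zinc-finger factor of the reprogramming cassette that binds C-rich motifs, and AP-1 is a dimer of FOS and JUN family proteins that binds many fibroblast enhancers.

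Some hub bins hold sequences that a reader may want beside the contact values. The miRNA annotation used, which may be incomplete, placed 5 miRNA genes in 4 hub bins. These were Mir199a-2 at chr1:162210001-162220000, Mir21a at chr11:86580001-86590000, Mirlet7e and Mir125a at chr17:17830001-17840000, and Mir3109 at chr9:69450001-69460000. The mature forms of 4 of them follow, since miR-199a and miR-21a are abundant miRNAs of mesenchymal cells; the sequences are those of RefSeq on GRCm38.p6, which is mm10, and the seed (bases 2 to 8) is in capitals.
miR-199a-5p: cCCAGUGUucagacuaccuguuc
miR-199a-3p: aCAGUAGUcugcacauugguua
miR-21a-5p: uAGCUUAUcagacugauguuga
let-7e-5p: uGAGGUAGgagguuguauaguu
miR-125a-5p: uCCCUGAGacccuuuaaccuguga
These 5 mature miRNAs have 5 different seeds.

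The promoters of 50 coding genes fell in 45 hub bins. The 250 bases before the start site of 4 of these genes follow, because their bins lead the KLF4 and Hi-C readouts (Emp1, F3) or hold a fibroblast structural gene (Vim, Col6a1). Capitals mark the AP-1 motif TGANTCA and the C-rich KLF-type motif CCNCNCCC, searched on both strands, where overlapping matches run together.
Emp1 (chr6:135362681-135362930, plus strand): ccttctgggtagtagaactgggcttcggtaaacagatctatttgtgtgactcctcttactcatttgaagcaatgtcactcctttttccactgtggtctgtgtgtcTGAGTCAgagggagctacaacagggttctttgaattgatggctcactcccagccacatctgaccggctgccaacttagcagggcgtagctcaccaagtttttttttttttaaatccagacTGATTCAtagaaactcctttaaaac
F3 (chr3:121723287-121723536, plus strand): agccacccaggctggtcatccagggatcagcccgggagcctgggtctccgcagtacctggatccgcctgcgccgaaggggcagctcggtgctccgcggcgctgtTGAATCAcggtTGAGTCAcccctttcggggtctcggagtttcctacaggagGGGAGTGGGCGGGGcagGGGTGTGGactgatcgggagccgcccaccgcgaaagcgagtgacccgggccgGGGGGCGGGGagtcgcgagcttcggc
Col6a1 (chr10:76726045-76726294, minus strand): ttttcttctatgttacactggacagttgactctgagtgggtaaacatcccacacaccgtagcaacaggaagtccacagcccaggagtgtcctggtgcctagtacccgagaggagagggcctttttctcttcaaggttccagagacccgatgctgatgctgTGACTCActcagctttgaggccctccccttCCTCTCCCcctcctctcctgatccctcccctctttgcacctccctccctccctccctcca
Vim (chr2:13574061-13574310, plus strand): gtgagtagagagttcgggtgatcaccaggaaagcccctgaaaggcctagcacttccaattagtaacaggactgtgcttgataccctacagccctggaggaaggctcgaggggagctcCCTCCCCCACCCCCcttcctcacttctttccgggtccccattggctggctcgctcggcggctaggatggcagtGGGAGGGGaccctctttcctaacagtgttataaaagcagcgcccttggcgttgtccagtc
The Emp1 window held 2 AP-1 matches and 0 KLF-type matches, F3 held 2 and 5, Col6a1 held 1 and 1, and Vim held 0 and 4. Among the 57 promoters listed for the 50 genes, 6 (10.5%) held the AP-1 motif, beside 6.13% of all 21263 coding promoters in the table. The KLF-type motif was in 31 (54.4%), beside 52.9% of all. A match describes these letters and is not a binding site.

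The degree of the hub bins in replicate 1 ran from 8 to 19, with 127 bins at 8, 92 at 9 and 2 at 19. Just outside the rule lay 258 bins at 7. Replicate 2, which the rule did not use, was read at 26 counts, the same share of its largest chromosome. Every listed HiChIP interaction already exceeded 3 CPM in replicates 1 and 2, so the list itself favours recurrence in replicate 2. There 351 of the 369 bins (95.1%) again had 8 or more interactions and none had under 4, while 695 bins in all reached 8. Replicate 2 held 105 M contacts and replicate 1 held 74.98 M, and the part of this difference in the 2 numbers was not tested. The fibroblast label was checked against marker genes: Vim and Prrx1, 2 of the 4 fibroblast markers with a promoter in the table, had it in a hub bin, Col1a2 lay in a bin of degree 7 and Twist1 in a bin of degree 0. None of the endothelial, immune, muscle, neural or epithelial markers had a promoter in a hub bin, nor did any of the pluripotency markers, whose promoter bins had a degree of 0 or 1. With 0.286% of all coding genes in hub bins and 3 or 4 genes per list, these counts of 0 do not bear on the label. Krt8 and Krt18, both keratin genes of simple epithelia, were contacted by 1 hub bin between them, at chr15:102010001-102020000.

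Hub bins lay on every autosome, most on chromosome 2 (38), chromosome 1 (31) and chromosome 10 (31), fewest on chromosome 14 (4) and chromosome 19 (9), and none on chromosome X, where 108 bins reached the cutoff. They ranged from 0.273% of the bins at the cutoff on chromosome 14 to 1.97% on chromosome 2. Joined where under 50 kb separated them, they formed 233 stretches. Of these, 175 held a single hub bin and 13 held 5 or more, with 82 hub bins among them. The largest were the Cubn to Vim stretch (9 hub bins in 210 kb), Col5a1 (8 in 120 kb), Dusp1 to Ergic1 (8 in 120 kb), Col6a1 (7 in 110 kb) and Vmp1 with Mir21a (7 in 130 kb).

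Hub bins held start sites about as often as other bins. A coding start site was in 45 of 369 (12.2%, beside 14.4% of the other bins at the cutoff), and only a noncoding one in 37. Counting both kinds, 82 (22.2%) held a start site, beside 19.5% of other bins. A coding gene's span overlapped 210 (56.9%, beside 68.0% of other bins), and the remaining 159 lay a median of 38.3 kb from the nearest coding gene, at most 484 kb. The promoter table holds 17492 of 21900 coding genes, so some start sites are missing. It lists none on chromosome 18, so promoters could not be seen at the 14 hub bins there or at their partners. Through their interactions, 202 of the 369 hub bins were paired with a bin that holds a coding promoter. The share of other bins was not counted. Hub bins have more partners by the rule, and so more occasions to be paired with a promoter. Counting both ways, 1.11% of the genes with a listed promoter had it in a hub bin or in a bin paired with one.

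Hub interactions reached farther than others. The 3146 interactions of hub bins were 10.3% of those at the cutoff and spanned a median of 30 kb, against 10 kb for the other 27499. Spans of 100 kb or more made up 13.4% of hub interactions and 1.36% of the rest, and adjacent bins 20.9% and 54.8%. Only 2 bins are adjacent to any bin, so the rule itself favours longer spans. The longest hub interaction spanned 630 kb. In 433 interactions both ends were hub bins, and 259 hub bins were linked to another hub bin. In the authors' deposited domain calls, 8.40% of hub bins lay within 40 kb of a MEF domain boundary, against 12.9% of other bins, with medians of 130 and 170 kb to the nearest boundary. Among interactions of 100 kb or more, 18 of 420 (4.29%) at hub bins crossed a MEF boundary, and 10 of 375 (2.67%) elsewhere. With ES boundaries the order was the opposite, 8 of 420 (1.90%) and 19 of 375 (5.07%). The 1 set of domains per cell type has no replicates, so these shares are descriptions.

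**Figure D1:**
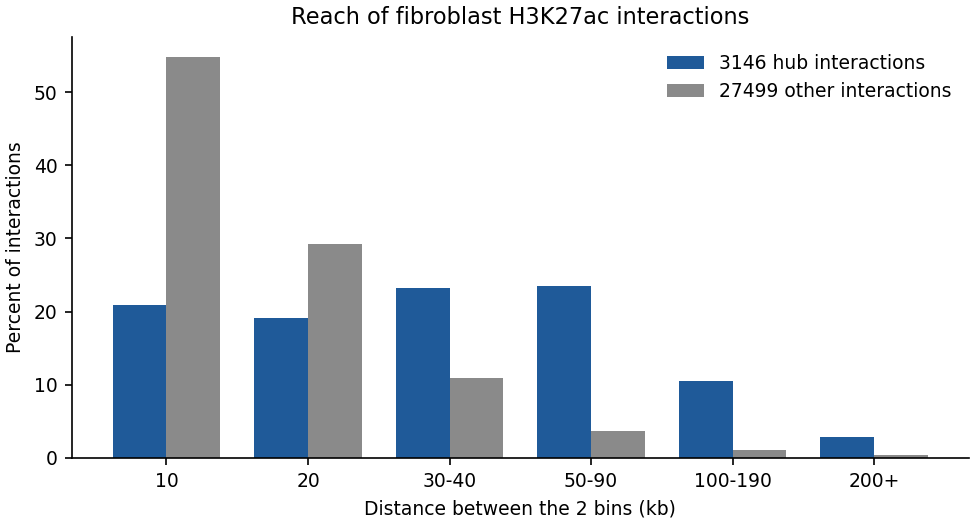
Percent of fibroblast H3K27ac interactions (y axis) by distance between the bins in kb (x axis), for the 3146 interactions of hub bins (blue) and the 27499 others (grey). Adjacent bins at 10 kb hold 54.8% of the other interactions and 20.9% of the hub interactions.

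The 12 named bins of highest degree, from 13 with 15 or more interactions, held no coding promoter and lay within or between gene spans; exons were not examined. The bin at chr1:162000001-162010000, in the span of Dnm3 (dynamin 3) and holding the start of the noncoding 2810442N19Rik, had 19 interactions in each MEF library. It had 0 in both ES and all 6 TKO libraries. In KLF4 HiChIP it had 5, 5 and 1 at day 3, and 0 in every day 6 and ES library. Dnm3 hosts on its opposite strand Dnm3os, the precursor of miR-199a, whose start lies in the hub bin at chr1:162210001-162220000. That bin had 13 H3K27ac interactions in each MEF library, 0 in ES and TKO, and 3, 3 and 2 KLF4 interactions at day 3. In Hi-C the first bin had 12 and 13 interactions in MEF libraries and 1 and 2 in ES libraries, and the second had 3 and 3 against 0 and 0.

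The chr12:70610001-70620000 bin also had 19 in each MEF library, lay 142 kb from its nearest coding gene Tmx1, and contacted the promoter of Frmd6, a FERM-domain protein, 210 kb away with 23 and 28 counts. At chr2:13410001-13420000 and chr2:13400001-13410000, in the span of Cubn, degrees of 18 and 19, and of 16 and 17, were met by 0 in every ES and TKO library and in every KLF4 library. Cubn encodes cubilin, an endocytic receptor of kidney and gut, and both bins were paired with the promoter of Vim, which encodes vimentin, the intermediate filament of fibroblasts. The 2 bins contacted the Vim promoter bin across 160 and 170 kb with 47 and 49 counts in MEF replicate 1 and 74 and 82 in replicate 2. Neither pair was listed in any other HiChIP list, and MEF Hi-C listed the first with 13 and 24 counts.

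The Vim promoter bin itself, chr2:13570001-13580000, had 8 interactions in each MEF library, 0 in ES, 1 in every TKO library and 3, 5 and 3 in day 3 KLF4. Its interaction with the bin 20 kb upstream had 49 and 95 H3K27ac counts in MEF, and 62, 115 and 108 KLF4 counts at day 3, and was not listed in ES. In the same stretch, KLF4 degree was thus 0 in the 2 distal bins and at least 3 in every day 3 library at the promoter.

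Near Ccn2, which encodes a matrix-associated protein induced by YAP and TGF-beta, the bin at chr10:24580001-24590000 had 15 and 18 interactions in MEF, 2 in each ES library and 2 or 3 in the TKO libraries. A second bin 140 kb away, chr10:24440001-24450000, had 15 and 18 in MEF and 0 in ES and TKO. The bin at chr2:167770001-167780000 had 15 and 15 in MEF and 0 in all other HiChIP lists, and contacted the promoter of Cebpb, a basic leucine zipper factor, across 90 kb with 23 and 27 counts. Its Hi-C degree was 15 in each MEF library and 11 and 18 in ES. The bin contacting the promoter of Hmga2, an architectural chromatin protein, across 150 kb had 15 and 14 in MEF and 0 in ES.

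The chr8:126660001-126670000 bin, 66.0 kb from Irf2bp2, which encodes an IRF2-binding corepressor, had 16 and 21 interactions in MEF and 0 in ES. It had 2, 1 and 2 in TKO at 0 h and 6, 7 and 6 at 24 h. It contacted the Irf2bp2 promoter bin with 57 and 78 counts in MEF, 27, 21 and 22 in TKO at 0 h, 27, 41 and 36 at 24 h and 23, 47 and 73 in day 3 KLF4. The ES H3K27ac list did not hold the pair. The remaining bins among these, within Ldlrad4 (16 and 21), within Dnm3 (15 and 15) and near Tomm20 (15 and 20), had 0, 0 and 3 interactions in each ES library. The bin that tied at 15 and was left out by position, chr11:86650001-86660000 in Vmp1, had 15 and 14 in MEF and 0 in ES. Of the 13, 11 had 0 in both ES libraries, where 56.4% of other bins did.

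**Figure D2:**
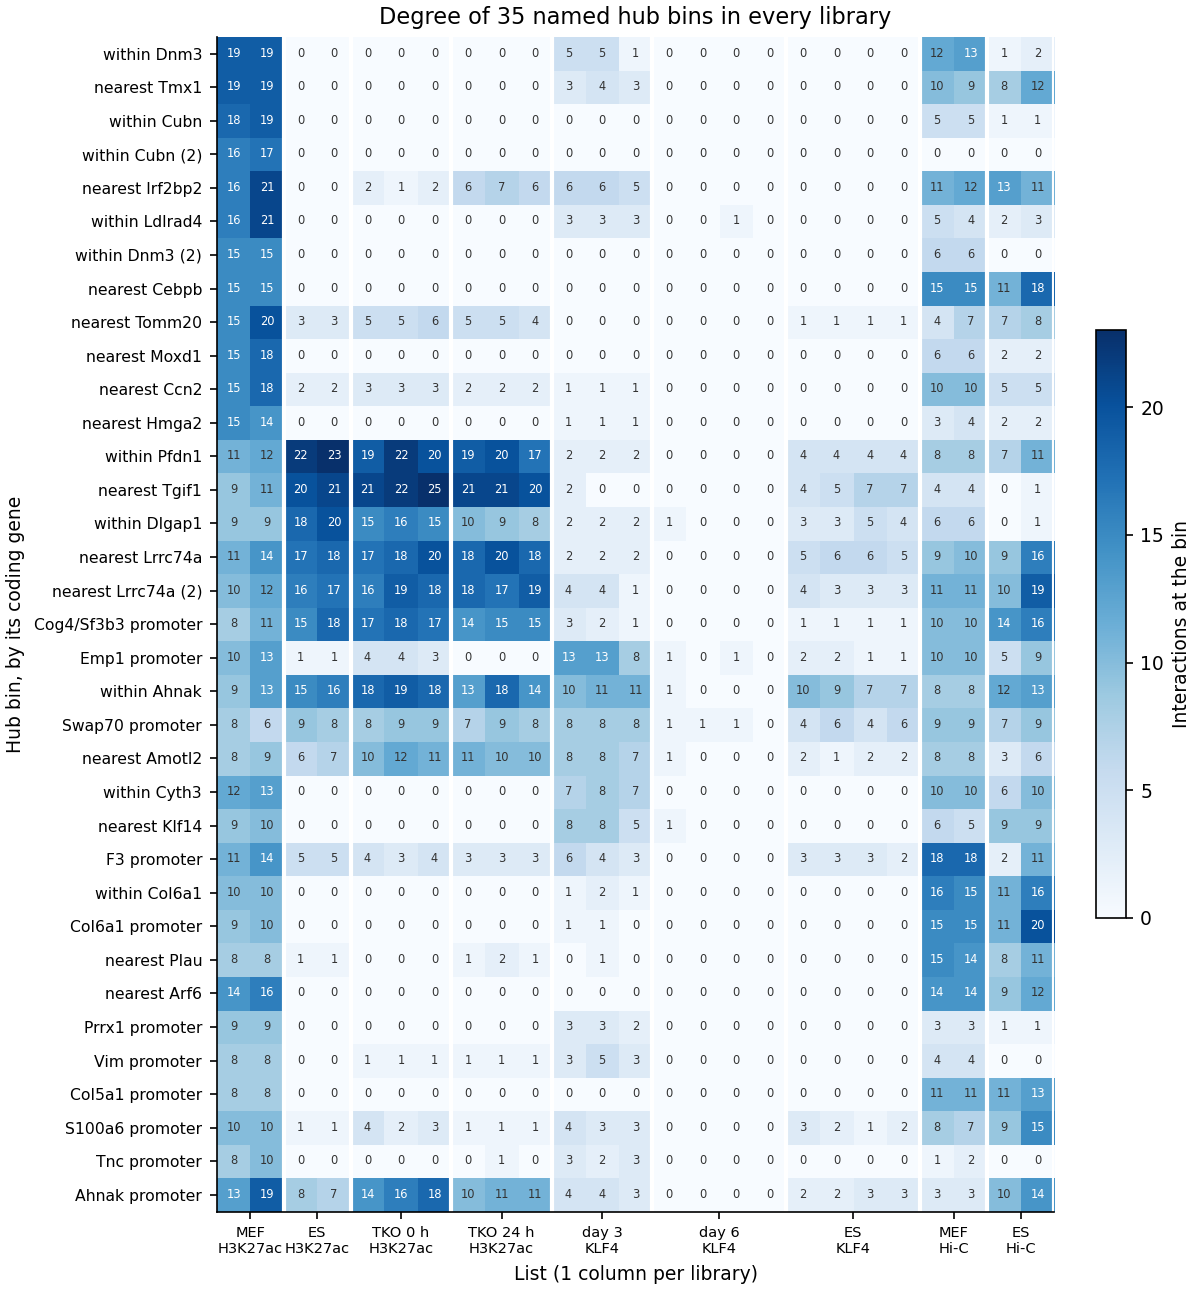
Number of interactions (colour and printed digit) of 35 named hub bins (rows, by the coding gene whose promoter they hold, lie within or lie nearest to) in each of the 25 libraries (columns, grouped by list). Most rows at the top are dark in MEF H3K27ac and read 0 in ES H3K27ac, a block near Pfdn1, Tgif1 and Lrrc74a is also dark in ES and TKO, and the Emp1, Ahnak and Swap70 rows stand out at day 3.

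Few members of the gene lists had a promoter in a hub bin. Of the fibroblast matrix list, 3 of 17 genes with a listed promoter had it in a hub bin (Col5a1, Col6a1, Tnc), beside 0.286% of all coding genes, and Col6a2 and Col6a3 were contacted by one. Of the cytoskeleton and adhesion list it was 3 of 21 (Ahnak, S100a6, Vim), with Cav1, Cd44, S100a4 and Tpm1 contacted. Of 18 mesenchymal transcription factors, Prrx1 had its promoter in a hub bin, Runx1 was contacted, and a hub bin lay in the span of Glis3. None of 9 AP-1 genes had a promoter in a hub bin, but 4 hub bins contacted Fosl2, across 60 to 530 kb. Of 14 genes of TGF-beta and YAP signalling, none had a promoter in a hub bin and Amotl2 was contacted. Receptor genes (0 of 8) and pluripotency genes (0 of 18) had neither. The lists were drawn up with earlier results of these data known, so the counts are descriptions.

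A stretch of 7 hub bins overlapped Col6a1, and bins in it contacted the Col6a2 promoter, which lies outside it. Col6a1 encodes a chain of collagen VI, a beaded microfibril collagen. Its promoter bin, chr10:76720001-76730000, had 9 and 10 interactions in MEF and 0 in every ES and TKO library. It was linked to the Col6a2 promoter bin 100 kb away with 28 and 43 counts, again listed only in MEF among HiChIP lists. Hi-C degree there was high in both cell types, 15 and 15 in MEF and 11 and 20 in ES. At the Col5a1 promoter bin, for a chain of the fibril-nucleating collagen V, H3K27ac degree was 8 and 8 in MEF and 0 in ES, beside Hi-C degrees of 11 and 11 and of 11 and 13. At both collagen promoters the Hi-C groups overlapped or touched; the MEF H3K27ac values were set by the rule.

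Tnc, for the matrix glycoprotein tenascin C, had 8 and 10 interactions in MEF at its promoter bin, 0 in ES, and 3, 2 and 3 in day 3 KLF4. Prrx1, a homeobox factor of limb and craniofacial mesenchyme, had 9 and 9, 0 and 0, and 3, 3 and 2. Both had 0 in all ES and day 6 KLF4 libraries. The S100a6 promoter bin, for a small calcium-binding protein, had 10 and 10 interactions in MEF, 1 and 1 in ES, 2 to 4 in TKO at 0 h, 4, 3 and 3 in day 3 KLF4 and 1 to 3 in ES KLF4.

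Distal hub bins contacted the promoters of Cd44, Cav1, Fosl2 and Tpm1. A hub bin 38.3 kb from Cd44, the hyaluronan receptor, had 14 and 14 interactions in MEF, 0 in ES and TKO, and contacted the Cd44 promoter with 42 and 78 counts. Cav1, for the caveolar coat protein, was contacted from within Tes, 200 kb away, with 24 and 52 counts. The longest contact with Fosl2, at 530 kb, had 19 and 22 counts. None of these 3 pairs was listed in ES, TKO or KLF4. The hub bin that contacted Tpm1 (tropomyosin 1) from within Tln2, 170 kb away, was an exception: its pair had 29 and 54 counts in MEF, 34 and 55 in ES, and was lower in ES by a log2 change of -1.14 (adjusted p = 0.000153, edgeR's quasi-likelihood test).

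In ES cells the 369 bins had fewer H3K27ac contacts than in MEF, where the rule set them high, and more on average than other bins. Their mean degree was 9.70 and 10.9 in the MEF libraries, 2.09 and 2.18 in ES, 2.54 to 2.66 in TKO at 0 h and 2.47 to 2.52 at 24 h. The median was 0 in every ES and TKO library, for hub bins and other bins alike, with 61.0% and 61.5% of hub bins and 58.0% and 57.8% of other bins at 0 in the ES libraries. The other bins at the fibroblast cutoff had means of 1.89 and 2.04 in MEF and 1.47 and 1.48 in ES, so the ratio of hub to other bins was 5.12 and 5.33 in MEF, where it was fixed by the rule, and 1.42 and 1.47 in ES. A bin with a degree of 0 may still have contacts below the authors' filters and the cutoff.

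The bins fell into 3 classes by ES H3K27ac degree: 223 (60.4%) had 0 in both ES libraries, 109 (29.5%) had some, and 37 (10.03%) had 8 or more in both. Of the 30483 other bins, 17207 (56.4%) had 0 in both, near the share of hub bins, and 1023 had 8 or more in both. By replicate 1 alone, 41 (11.1%) of the fibroblast hub bins were hub bins in ES too, beside 1177 (3.86%) of the other bins. The ES list held 2167 hub bins chosen in the same way. Of the interactions themselves, 650 of 3146 (20.7%, 95% Wilson interval 19.3 to 22.1) were listed in ES at any count, against 34.4% of the other fibroblast interactions (33.9 to 35.0). At spans of 20 kb or more the shares were 18.9% and 34.2%, and for adjacent bins 27.3% and 34.6%. The intervals cover counting error only.

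**Figure D3:**
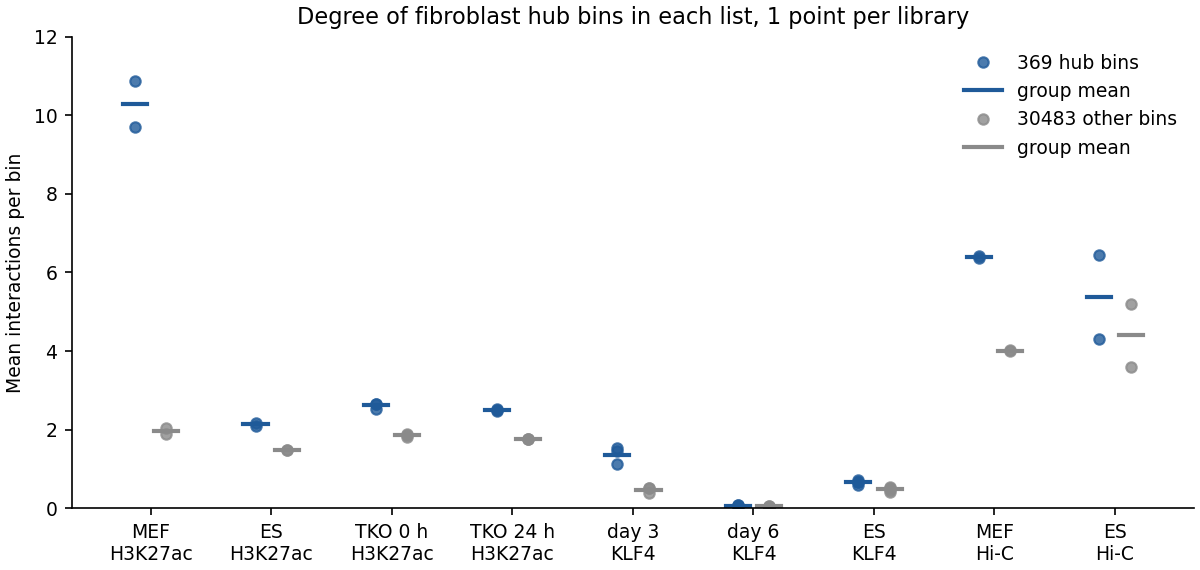
Mean number of interactions per bin (y axis) in each list (x axis), for the 369 hub bins (blue) and the 30483 other bins at the fibroblast cutoff (grey), with 1 point per library and a bar at the mean over libraries. Hub bins sit at 9.70 and 10.9 in MEF H3K27ac and near 2 in ES, and the day 3 KLF4 points lie above those of ES KLF4.

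The 6 hub bins with the highest ES degree included 2 in the Tgif1 region and 2 beside Irf2bpl. At chr18:36410001-36420000, within Pfdn1 (a prefoldin chaperone subunit), degree was 11 and 12 in MEF, 22 and 23 in ES and 17 to 22 in TKO. The bin at chr17:70830001-70840000, 4.21 kb from Tgif1, a homeobox corepressor of TGF-beta signalling, had 9 and 11 in MEF, 20 and 21 in ES and 20 to 25 in TKO. A second bin 80 kb from it, within Dlgap1, had 9 and 9 in MEF, 18 and 20 in ES, 15 to 16 in TKO at 0 h and 8 to 10 at 24 h. The TKO times did not overlap at this bin and overlapped at the first, and how often they do so over all bins was not counted. Both bins contacted the Tgif1 promoter.

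The others of the 6 were 2 adjacent bins that contact the promoter of Irf2bpl, an IRF2BP2-like regulator (10 to 14 in MEF, 16 to 18 in ES), and the shared promoter bin of Cog4, a Golgi tethering subunit, and Sf3b3, a splicing factor (8 and 11 in MEF, 15 and 18 in ES). In each of the 6 bins both ES libraries were above both MEF libraries, but the bins were picked for their ES level. KLF4 contacts were present in ES at all of them, from 1 at Cog4 and Sf3b3 to 7 near Tgif1.

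Interactions listed in both MEF and ES were tested on their counts, which asks whether shared contacts changed in strength. MEF replicate 1 had chosen the members, so the fit used MEF replicate 2 and both ES libraries, and the lone MEF library was assumed to vary like the ES libraries. Of the 369 hub bins, 159 had such an interaction, 866 in all, and the other 210 were not testable. At hub bins 395 interactions were lower in ES and 59 higher (454 of 866), where 12.3% of all 17901 tested interactions were lower, 14.8% higher and 27.1% changed in either direction (edgeR's quasi-likelihood test, adjusted p under 0.05). The lower calls were 45.6% of those at hub bins and the higher ones 6.81%. The median log2 change was -0.56 at hub bins and -0.00 over all. The members were chosen for strong contacts in fibroblasts, so this direction is not independent of the choice.

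Scaling by contact totals without TMM factors moved the median of all tested interactions to 0.19. It gave 308 lower and 94 higher at hub bins, so the share of lower calls went from 87.0% to 76.6%. With the totals of each chromosome it was 332 and 89 (78.9% lower).

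The interaction that fell most joined bins in Tubd1 and Vmp1, 80 kb apart, at chr11:86570001-86580000 and chr11:86650001-86660000, and the bin of Mir21a lies between them. It had 90 and 196 counts in MEF, 30 and 34 in ES and 15 to 32 in the TKO libraries. The log2 change was -3.47 ± 0.20 (SE; adjusted p = 6.14e-66), and ES libraries held 166 M and 168 M contacts against 105 M in MEF replicate 2. Hi-C counts of the pair were 26 and 34 in MEF and 37 and 23 in ES, a log2 change of -0.38 ± 0.28 (adjusted p = 0.949), which did not pass the test.

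Within Glis3, a zinc-finger factor of the Kruppel-like type, the bins at chr19:28620001-28630000 and chr19:28670001-28680000 had 53 and 106 counts in MEF and 20 and 15 in ES (log2 -3.45 ± 0.26, adjusted p = 1e-37). At the cutoffs, which are 38 and 39 counts in ES, the first of these bins had 9 and 11 interactions in MEF. It had 0 in ES and 4 or 5 in the TKO libraries. At the S100a cluster, S100a3 contacted S100a4 and S100a5, 20 kb apart, with 68 and 119 counts in MEF against 35 and 31 in ES (log2 -2.71 ± 0.22, adjusted p = 3.15e-31). The promoter of Amotl2, an angiomotin-like partner of YAP, was contacted from 70 kb away with 62 and 135 counts in MEF and 38 and 44 in ES (log2 -2.58 ± 0.21). Emp1 was contacted from 30 kb away with 63 and 96 against 30 and 34 (log2 -2.44 ± 0.24).

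Contacts higher in ES were spread over 25 hub bins, and the highest fold change lay near Tgif1. The pair at chr17:70830001-70840000 and chr17:70860001-70870000 had 17 and 11 counts in MEF, 279 and 263 in ES, 115 to 132 in TKO at 0 h and 64 to 109 at 24 h. This is a log2 change of 3.75 ± 0.29 (adjusted p = 2.81e-36), and 8 of the 19 tested interactions of this bin were higher in ES and 1 lower. Near Rbpj, the DNA-binding effector of Notch, the adjacent bins at chr5:53540001-53550000 and chr5:53550001-53560000 rose from 23 and 34 counts to 412 and 420 (log2 2.75 ± 0.20, adjusted p = 3.6e-41). Myh9, for non-muscle myosin heavy chain, had 6 of 13 tested interactions at its promoter bin higher in ES and 1 lower.

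**Figure D4:**
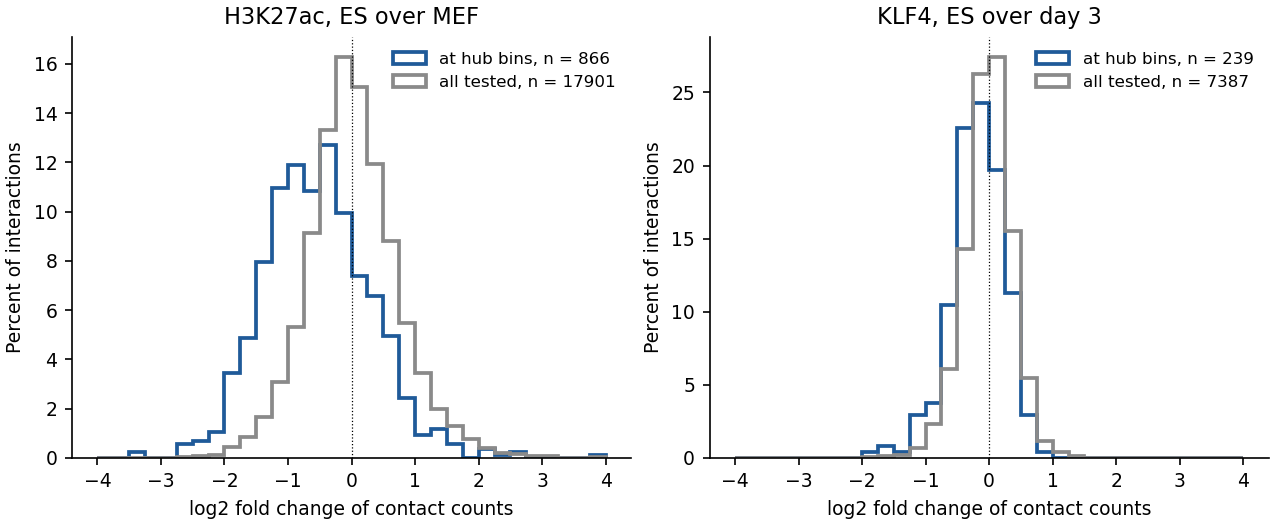
Percent of tested interactions (y axis) by log2 fold change of contact counts (x axis), for H3K27ac in ES over MEF (left) and KLF4 in ES over day 3 (right), at hub bins (blue, n = 866 and 239) and over all tested interactions (grey, n = 17901 and 7387). The hub histogram lies left of the grey one in the H3K27ac panel, with medians of -0.56 and -0.00, and slightly left in the KLF4 panel, with medians of -0.13 and 0.00.

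KLF4 contacts at the fibroblast hub bins were denser on day 3 of reprogramming than later. Mean KLF4 degree of the 369 bins was 1.46, 1.53 and 1.11 at day 3, 0.0379 to 0.0867 at day 6 and 0.602 to 0.718 in ES. The other bins had 0.394 to 0.515 at day 3 and 0.420 to 0.550 in ES, so the ratio of hub to other bins was 2.82 to 2.99 at day 3, 1.01 to 1.58 at day 6 and 1.31 to 1.44 in ES. The ratio thus separated the day 3 libraries from all 8 others. These 8 are fewer independent samples, since no pair of day 6 libraries differed beyond sampling noise and the ES libraries count as 2 samples. Day 6 also has a short list of 4047 interactions, and its values rest on 10 to 30 hub bins with any interaction per library. With 3 libraries against 2 independent ES samples the smallest two-sided p of an exact permutation test is 0.2, so no test was run on this ratio.

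Bin by bin, 109 hub bins (29.5%) had more KLF4 interactions in every day 3 library than in any ES library, beside 11% of all 30852 bins at the fibroblast cutoff, and 19 (5.15%) had fewer in every one, beside 10.6%. Against day 6, 154 hub bins (41.7%) were higher at day 3 in every library, beside 19.9%, and 0 were lower, beside 0.146%. The KLF4 libraries were not used by the rule. Day 3 cells are derived from MEFs with the same alleles as those that supplied the H3K27ac list. ES libraries 1 and 2, and 3 and 4, agree within sampling noise and count as 2 samples.

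The day 3 signal was spread over hub bins with and without ES H3K27ac interactions at the ES cutoffs. Without a cutoff, over all listed ES rows, 210 of the 369 hub bins had 0. In the 223 bins with none at the cutoffs, the mean KLF4 degree was 0.700 to 0.951 at day 3 and 0.0404 to 0.0717 in ES. Of these bins, 78 to 91 had any KLF4 interaction at day 3 and 7 to 11 in ES. In the 109 bins with some, the mean KLF4 degree was 1.45 to 2.02 against 0.844 to 1.11. In the 37 bins that were hubs in both, day 3 (2.62 to 3.54) and ES (3.08 to 3.51) overlapped. The classes were set by ES H3K27ac, in the same cell type as the ES KLF4 values.

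**Figure D5:**
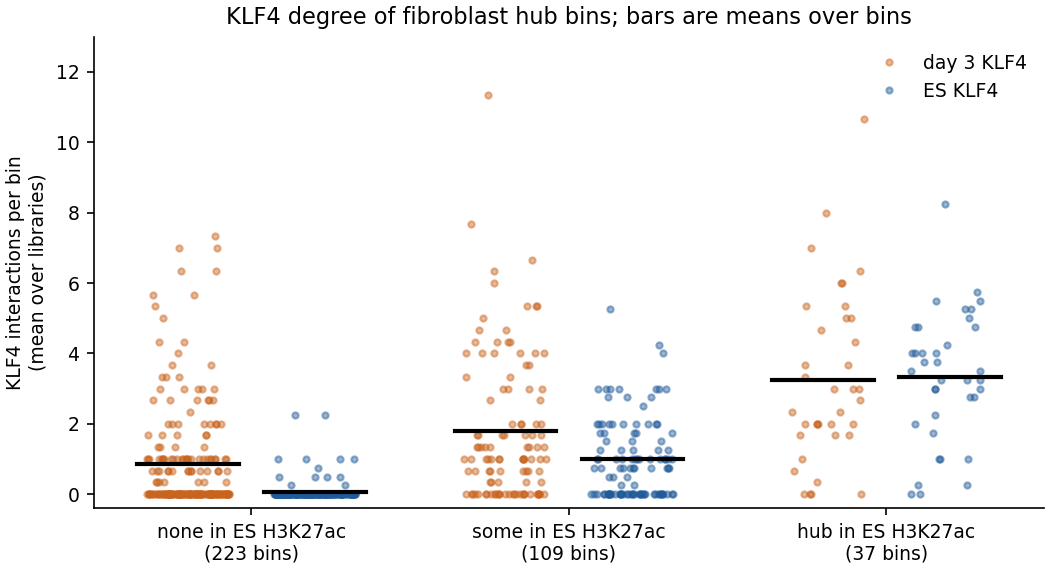
KLF4 interactions per hub bin, as the mean over libraries (y axis), at day 3 (orange) and in ES (blue), for the 3 classes of hub bin by ES H3K27ac (x axis); each point is a bin, shifted sideways at random, and black bars are means over bins. In the 223 bins without ES H3K27ac interactions at the cutoffs the day 3 mean is 0.843 and the ES mean 0.0527. In the 37 bins that are hubs in both the means are 3.23 and 3.33.

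Emp1, which encodes a small tetraspan membrane protein, led the day 3 readout. Its promoter bin, chr6:135360001-135370000, had 13, 13 and 8 KLF4 interactions at day 3, 0 or 1 at day 6 and 1 or 2 in ES, and 10 and 13 H3K27ac interactions in MEF against 1 and 1 in ES. The printed window of 250 bases held 2 AP-1 matches and no KLF-type match, and that of a second Emp1 start in the bin (chr6:135367243-135367492) held neither. Within Ahnak, a giant scaffold protein of the cell cortex, the bin at chr19:8990001-9000000 had 10, 11 and 11 at day 3 and 7 to 10 in ES, where the groups touched, and its H3K27ac degree was 9 and 13 in MEF and 15 and 16 in ES. Beside it, the Ahnak promoter bin had 4, 4 and 3 at day 3 and 2 to 3 in ES.

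Swap70, an actin-binding signalling protein, had 8, 8 and 8 KLF4 interactions at its promoter bin at day 3 and 4 to 6 in ES. A bin 36.6 kb from Amotl2 had 8, 8 and 7 against 1 or 2. The bins within Cyth3, an exchange factor for ARF GTPases (7, 8 and 7), and 121 kb from Klf14 (8, 8 and 5) had 0 in every ES KLF4, ES H3K27ac and TKO library. Of the 6 bins highest at day 3, all but the one within Ahnak had every day 3 library above every ES library; they were picked for their day 3 level. The last of them tied at a mean of 7 with bins at Ccl7 (7, 8 and 6 at day 3, 0 in ES KLF4) and Denn2b (8, 8 and 5, and 1 to 3).

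Interactions listed at both day 3 and in ES were then tested. Of the 369 hub bins, 94 had one, 239 interactions in all. At hub bins 26 were lower in ES and 2 higher, where 4.18% of all 7387 tested interactions were lower, 3.02% higher and 7.2% changed in either direction (edgeR's quasi-likelihood test, adjusted p under 0.05). The lower calls were 10.9% of those at hub bins and lay at 24 bins. The median log2 change was -0.13 at hub bins and 0.00 over all. The count of 28 calls fell to 14 with contact totals alone, to 7 in DESeq2, and to between 13 and 18 without 1 of the day 3 libraries, and it was 15 without ES replicates 3 and 4 and 34, with 8 higher, without replicates 1 and 2. In each of these fits lower calls outnumbered higher ones, at hub bins and over all tested interactions alike. Lower calls were 76.5% to 100% of the calls at hub bins and 50.7% to 78.1% of those over all.

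Several lower calls shared the Dusp1 to Ergic1 stretch. Dusp1 encodes a phosphatase that switches off MAP kinases and is an immediate-early gene. Its promoter bin, chr17:26500001-26510000, contacted the hub bin 80 kb away within Ergic1 with 30, 76 and 82 KLF4 counts at day 3 and 12, 7, 17 and 20 in ES (log2 -1.56 ± 0.22, adjusted p = 7.2e-08). The H3K27ac counts of this pair were 53 and 75 in MEF and 60 and 53 in ES (log2 -1.27 ± 0.23, adjusted p = 6.89e-07). The neighbouring pair that starts 10 kb downstream fell by 1.90 ± 0.29 on the log2 scale (adjusted p = 4.95e-07), from 12, 42 and 49 counts to 10, 6, 4 and 4.

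Downstream of Amotl2, the pair at chr9:102730001-102740000 and chr9:102770001-102780000 had 45, 92 and 90 KLF4 counts at day 3, 13 to 25 at day 6 and 11 to 22 in ES (log2 -1.64 ± 0.22, adjusted p = 1.5e-08). Its H3K27ac change did not pass the test (log2 -0.56 ± 0.27, adjusted p = 0.116), and its Hi-C counts were 25 and 30 in MEF and 36 and 36 in ES (log2 0.00 ± 0.27). At the S100a cluster the pair of the S100a3 and S100a6 promoter bins had 32, 102 and 90 against 15 to 29 (log2 -1.19 ± 0.21, adjusted p = 2.57e-05). The Emp1 pair above had 28, 77 and 76 against 13 to 22 (log2 -1.16 ± 0.22, adjusted p = 4.6e-05).

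The 2 higher calls were a 100 kb pair near Irf2bpl (9, 26 and 27 counts at day 3 and 15 to 32 in ES, log2 0.80 ± 0.24, adjusted p = 0.0222) and the Myh9 promoter with its neighbouring bin (16, 67 and 52 against 27 to 76, log2 0.66 ± 0.21, adjusted p = 0.0297). The raw counts overlap between the groups at both, and the libraries held from 51.9 M to 181 M contacts. Higher calls at hub bins were 0 with contact totals alone, in DESeq2, in a replicate block and without day 3 replicate 1 or 3. They were 2 without day 3 replicate 2 and 4 with all libraries kept separate.

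In Hi-C the hub bins had many contacts in both cell types. Their mean degree was 6.36 and 6.41 in MEF and 4.31 and 6.43 in ES, with medians of 6 and 6, and 4 and 6, so the cell types overlapped. Of 369 bins, 355 in each MEF library (96.2%) and 298 and 312 in ES (80.8% and 84.6%) had any Hi-C interaction, beside 85.1% and 85.4%, and 78.0% and 81.3%, of other bins. The ratio of hub to other bins was 1.59 and 1.59 in MEF and 1.19 and 1.24 in ES. Bin by bin, 158 hub bins (42.8%) were higher in both MEF libraries, beside 27.7% of all bins at the cutoff, and 65 (17.6%) lower in both, beside 31.6%. The ES cutoffs were 22 and 18 counts and the MEF cutoff 13, and taking all listed rows raised the ES median to 7 and left the MEF median at 6.

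F3, which encodes tissue factor, the trigger of blood clotting, had the highest MEF Hi-C degree: 18 and 18 at its promoter bin, chr3:121720001-121730000, and 2 and 11 in ES. Its H3K27ac degree was 11 and 14 in MEF and 5 and 5 in ES, and its KLF4 degree 6, 4 and 3 at day 3 and 2 or 3 in ES. The bin 16.6 kb from Plau, the urokinase gene, had 15 and 14 in MEF Hi-C and 8 and 11 in ES, and one 74.0 kb from Arf6 had 14 and 14 against 9 and 12, tied in MEF with a bin at BC034090 (14 and 14 against 4 and 11). At both, and at F3, the MEF libraries were above the ES libraries, while at Cebpb and Col6a1 they overlapped. These bins were picked for their MEF Hi-C level, which favours MEF above ES.

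The Hi-C test had 1270 interactions at 283 hub bins and called 3, all higher in ES, where 0.0322% of 124204 tested interactions were called (0.0209% higher, 0.0113% lower). The 3 calls met at 1 hub bin, chr16:35510001-35520000, between Pdia5, a protein disulfide isomerase, and Sema5b, an axon guidance semaphorin. Its pair with the bin 20 kb downstream had 33 and 34 Hi-C counts in MEF and 115 and 112 in ES (log2 1.37 ± 0.23, adjusted p = 0.000407), and its pairs with the Pdia5 promoter bin (24 and 33 against 85 and 104) and the Sema5b bin (19 and 28 against 74 and 71) moved the same way. The same bin had 8 and 6 H3K27ac interactions in MEF and 1 and 1 in ES, and 5 and 5 Hi-C interactions in MEF against 14 and 28 in ES. The calls were 0 without either MEF library and 0 in DESeq2, where 15 interactions at hub bins had an unadjusted p under 0.05.

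In the TKO lists, which hold the authors' H3K27ac peaks per bin, 176 hub bins were listed at 0 h (47.7%, beside 52.5% of other bins), and 110 of these (62.5%, beside 58.9%) carried a peak. At 24 h it was 181 listed and 114 with a peak (63.0%, beside 58.7%). Of the hub interactions, 22.9% were listed at 0 h and 23.3% at 24 h, against 38.2% and 38.4% of other fibroblast interactions. The day 3 KLF4 list held 21.4% of hub interactions and 21.8% of the others, while ES KLF4 held 10.1% and 19.4%. By span the day 3 shares differed in opposite directions. They were 27.4% and 20.4% for adjacent bins, and 19.8% and 23.5% at 20 kb or more. MEF Hi-C held 46.1% and 51.8%. Presence in a list depends on the filters of that list, and shares are not compared across lists of different length.

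The 3 other miRNA bins differed in the KLF4 readout. The Mir21a bin had 8 and 8 H3K27ac interactions in MEF, 1 and 1 in ES and 3, 3 and 3 KLF4 interactions at day 3 against 0 in ES. The Mirlet7e and Mir125a bin had 8 and 9 in MEF, 2 and 2 in ES and 4 to 6 in TKO, with 1 KLF4 interaction in every day 3 and ES library. The Mir3109 bin also holds a promoter of Anxa2, for the membrane-binding protein annexin A2, and had 8 and 6 in MEF, 0 in ES and TKO, and 6, 6 and 7 KLF4 interactions at day 3 against 0 in ES. HiChIP measures contacts of the bins and gives no level for these miRNAs.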

How the data were processed

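The data are 21 HiChIP and 4 Hi-C libraries of mouse cells. The authors deposited lists of interactions between 10 kb bins with, per the file headers, raw counts, a CPM, a distance-normalized ratio per replicate, a p-value and an FDR. Bowtie2 2.2.3 and build mm10 stand in the submitters' processing notes; the contact caller and its test are not given in the sources used here. The deposited CPM divides counts by the contacts of the same chromosome, so count over CPM gave each chromosome's total. The deposited p-value was at most 0.0997 in the HiChIP lists, while the deposited FDR reached 1 in every list. The deposited Hi-C signal was not used. 2 deposited domain lists give boundaries in 40 kb steps, and no other deposited score enters.

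Degree counts interactions at or above a cutoff per library: the counts worth 3 CPM on the largest chromosome, rounded up, which is 19 in MEF replicate 1. In Hi-C it was the highest of the chromosomes' lowest listed counts. A single cutoff leaves fewer bins on small chromosomes and X, where contact totals are lower. The depth was 48.7 to 181 M contacts in HiChIP and is unknown in Hi-C beyond the listed counts. Genes and sequences came from RefSeq tables on GRCm38.p6.

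Replicates were compared by chi-square over interactions with a mean CPM of 6 or more. In ES KLF4, chi-square over its degrees of freedom was 1.01 for replicates 1 and 2 and 0.966 for 3 and 4, against 1.25 to 1.50 across these pairs, so neither pair differed beyond sampling noise and the pairs were summed and counted as 1 sample each. TKO 24 h replicates 1 and 3 (1.01) agreed likewise, and TKO values are given as ranges over libraries. No pair of day 6 libraries differed over the 904 interactions compared, fewer than in any other group. A spread beyond counting noise was thus not detected, and a comparison of so few may miss it.

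Interactions in both lists of a pair were tested on raw counts with edgeR 4.0.16 (R 4.3.3; filterByExpr, TMM on contact totals, or on count sums in Hi-C), with Benjamini-Hochberg adjustment over the whole table and calls at 0.05. The steps were tested on simulated data. DESeq2 1.42.0 served as an alternative. Tables were made with pandas 2.3.3 in Python 3.11.15. Same-numbered replicates were not paired by the labels.

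The members and the gene lists were chosen with earlier results of these data known. Bins named are the 12 of highest degree, the 6 highest each in ES H3K27ac, day 3 KLF4 and MEF Hi-C, with ties broken by degree in the rule and then position, and every hub bin with a promoter of a listed gene. Interactions and other bins named beside them were chosen after their values were seen. All columns of the lists matched a sample.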

Additional observations from a re-analysis of the deposited data

How the results depend on the processing

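The number of hub bins follows the thresholds: 981 at a cutoff of 15 counts and 87 at 25, 1153 at a degree of 6 and 56 at 12, 695 by replicate 2 in place of replicate 1, 157 with adjacent bins left out and 2604 over all listed rows. Requiring the cutoff in both replicates left 299, within 1.5 times of 369. The median degree in ES H3K27ac, both TKO groups, day 6 KLF4 and ES KLF4 was 0 under every alternative run. At day 3 it was 0.667 (mean of the library medians) and 0 without adjacent bins, and 0.5 to 1 leaving out each replicate. In MEF Hi-C it was 6, and 5 with hubs of degree 12 or more. In ES Hi-C it was 5, 7 over all listed rows and 3.25 with hubs of degree 12 or more, and 4 to 6 leaving out each replicate.

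The H3K27ac calls at hub bins stayed within 1.5 times of 454 in all fits except DESeq2 with both MEF replicates, which gave 270 (228 lower), with 93 adjusted p-values not given. MEF replicate 1 in place of replicate 2 gave 314, and both MEF replicates 496, or 426 to 434 with both and without 1 ES replicate. All of these, DESeq2 and the block below use replicate 1, whose counts chose the bins, so they are no independent sign of stability. The KLF4 calls were 28, against 14 with contact totals alone, 7 in DESeq2 (87 adjusted p-values not given), 13 to 18 leaving out each day 3 replicate and 15 to 34 leaving out each ES pair. The Hi-C calls were 3, against 0 in DESeq2 and 0 to 3 leaving out each replicate. The cause of these moves was not tested. Of the 13 H3K27ac, 8 KLF4 and 3 Hi-C calls with the largest changes, none changed direction under any alternative run; 117 H3K27ac, 66 KLF4 and 17 Hi-C values stayed past the threshold, and 12 KLF4 and 10 Hi-C values did not.

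Same-numbered replicates did not deviate together: correlations of deviations were 0.0306 for H3K27ac, -0.0493 to 0.0194 for KLF4 and -0.00038 for Hi-C, so the numbers give no pairing. A replicate block gave 503 H3K27ac calls with both MEF replicates (496 without the block), 19 KLF4 calls (19 lower) and 5 Hi-C calls. Small counts limit single interactions, since the cutoffs lie at 12 to 45 counts per library.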
